A study of Homo sapiens with 12 samples.

Results

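The genes studied here are 41 neighbours on the short arm of chromosome 16, from SNN in 16p13 to ERI2 in 16p12. They were selected on the difference in expression between unirradiated degron (++) and degron (-) cells, in which many genes of this stretch had been seen to be lower together, so the values at 0 Gy 48 h are given below as a description. Of 23284 genes listed in the expression files, all 41 were found by their symbols, and 35 of them were among the 12946 genes with an FPKM (fragments scaled to exon length and to the number of mapped reads) of 1 or more in at least 2 libraries. Only these 35 members were compared between the populations.

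Both populations derive from PANC-1, an established human line of pancreatic ductal carcinoma, and both carry a retroviral reporter in which the green protein ZsGreen is fused to the degron of ornithine decarboxylase, kept under G418 selection. Because the proteasome destroys this fusion protein, cells with low proteasome activity stay green. In the study's methods degron (-) is the infected line, in which few cells were green, and degron (++) is the greenest part of a line that was enriched from it by repeated sorting and culture. Each population was sequenced without irradiation at 48 h, after 4 Gy at 30 h and after 4 Gy at 48 h, in 2 libraries per group and 12 libraries in all. The starting point of the hours is not given in the labels, and the 6 libraries taken as degron (-) are named ZsGreen-negative in their titles but d+ in their descriptions. The study also has a degron (+) line, the sorted line from which degron (++) was taken, and the labels leave unsettled whether d+ means that line. If the 6 libraries are the infected line, degron (++) cells went through sorting and culture that they did not, and the reporter state and this history cannot be told apart. Nothing in the labels says that the 2 libraries of a group came from separate cultures, so p-values measure only the spread between these samples.

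The stretch from SNN to ERI2 is gene-dense and holds genes of unrelated function: a translation termination factor, a nuclease of nucleotide excision repair, a nonsense-mediated decay kinase, a drug efflux pump and proteins of the centrosome, endoplasmic reticulum and mitochondrion. Neighbouring genes share one piece of chromosome, so gain or loss of that piece changes the gene dose of each of them, and where RNA follows dose the genes move by one common ratio. The part of 16p13 around the NOMO genes is also known for segmental duplications, in which near-identical copies of genes lie in several places. The question put to the data was therefore whether one common ratio describes the members or whether they differ from each other. No DNA was measured, so copy number itself was not tested.

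The sequence just before the transcription start of members that turned out far apart is shown first, with each CG dinucleotide in capitals, since CG sites are where promoters can be methylated. The windows are from RefSeq on GRCh38.p14, 250 bases before the start, each written 5′ to 3′ on the strand of its gene. FOPNL (CEP20 in RefSeq) and C16orf62 (VPS35L) were among the lowest members in degron (++) cells, and CPPED1 and GPRC5B were among the members that were higher there.
FOPNL, chr16:15888604-15888853 (- strand): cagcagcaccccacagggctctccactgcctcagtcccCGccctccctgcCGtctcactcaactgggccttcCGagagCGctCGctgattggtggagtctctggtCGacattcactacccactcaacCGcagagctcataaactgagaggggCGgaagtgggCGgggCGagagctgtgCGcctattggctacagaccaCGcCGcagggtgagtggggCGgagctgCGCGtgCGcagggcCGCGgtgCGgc
C16orf62, chr16:19555453-19555702 (+ strand): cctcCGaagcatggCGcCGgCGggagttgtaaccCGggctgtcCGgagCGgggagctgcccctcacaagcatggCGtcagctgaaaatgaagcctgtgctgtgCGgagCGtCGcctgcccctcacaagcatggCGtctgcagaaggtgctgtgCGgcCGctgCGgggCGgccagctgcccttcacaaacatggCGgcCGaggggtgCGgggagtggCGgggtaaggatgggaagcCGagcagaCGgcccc
CPPED1, chr16:12803888-12804137 (- strand): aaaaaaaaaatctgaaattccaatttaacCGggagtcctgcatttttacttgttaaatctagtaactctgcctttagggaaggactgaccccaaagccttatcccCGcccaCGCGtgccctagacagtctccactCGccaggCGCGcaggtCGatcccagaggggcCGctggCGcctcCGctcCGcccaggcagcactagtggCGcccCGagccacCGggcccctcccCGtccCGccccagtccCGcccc
GPRC5B, chr16:19885635-19885884 (- strand): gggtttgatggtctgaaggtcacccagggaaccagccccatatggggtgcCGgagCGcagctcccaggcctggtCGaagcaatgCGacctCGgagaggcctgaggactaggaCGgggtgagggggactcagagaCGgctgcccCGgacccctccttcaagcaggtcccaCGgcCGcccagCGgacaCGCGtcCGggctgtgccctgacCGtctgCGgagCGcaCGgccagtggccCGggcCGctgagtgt
KIAA0430 (MARF1) and NDE1 start back to back, and the 227 bases between their start sites were common to both.
KIAA0430 and NDE1, chr16:15643155-15643381 (+ strand): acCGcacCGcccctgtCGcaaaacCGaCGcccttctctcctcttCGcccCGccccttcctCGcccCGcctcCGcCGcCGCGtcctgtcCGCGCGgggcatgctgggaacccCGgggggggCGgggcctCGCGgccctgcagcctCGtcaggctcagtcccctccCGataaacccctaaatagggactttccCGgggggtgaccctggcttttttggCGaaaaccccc
These windows held 20 CG sites before FOPNL, 22 before C16orf62, 18 before CPPED1 and 20 before GPRC5B, with 24 in the stretch between KIAA0430 and NDE1. A window was found for 27 members by symbol, 24 of them tested. The number of CG sites had a median of 20 over the 24 tested members, with a range of 6 to 35. The median was 11 over all 27305 genes with a window, expressed or not, and 93.6% of these held at least 1. Among the 24 members, the 20 that were lower at 4 Gy 30 h had a median of 21 CG sites with a range of 6 to 35. The 4 others had a median of 17.5 with a range of 15 to 20, inside that of the lower members. Methylation was not measured.

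A second set of sequences shows how alike the NOMO genes are. NOMO1, NOMO2 and NOMO3 code for NOMO proteins, which reside in the endoplasmic reticulum membrane and were named as Nodal modulators. In GENCODE v29 the coding sequence of each is 3801 bases long. NOMO1 and NOMO2 were identical at 99.5% of positions with 19 differing bases, NOMO1 and NOMO3 at 99.5% with 18, and NOMO2 and NOMO3 at 99.8% with 9. The longest shared run was 1590 bases, between NOMO2 and NOMO3. In the 90 bases below, taken from spliced transcripts with their outer coordinates on GRCh38, the 4 positions at which the genes differ are in capitals.
NOMO1, coding bases 1171 to 1260, chr16:14857606-14863052 (+ strand): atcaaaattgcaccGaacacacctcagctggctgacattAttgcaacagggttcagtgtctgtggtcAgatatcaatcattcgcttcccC
NOMO2, coding bases 1171 to 1260, chr16:18533140-18538575 (- strand): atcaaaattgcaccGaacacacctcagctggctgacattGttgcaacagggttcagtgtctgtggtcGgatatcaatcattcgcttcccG
NOMO3, coding bases 1171 to 1260, chr16:16256109-16261541 (+ strand): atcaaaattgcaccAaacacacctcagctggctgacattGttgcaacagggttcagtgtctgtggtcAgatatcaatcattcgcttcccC
Reads from the shared runs match more than 1 of these genes, and how they were divided was not tested, so the values of the single NOMO genes are uncertain. SMG1, RRN3 and PDXDC1 have partial copies elsewhere on chromosome 16, which were not aligned here, and their values are treated as uncertain too.

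The libraries carried the keratins of a ductal line: KRT8 was at 2488 to 2981 FPKM in degron (++) and 1732 to 2118 in degron (-) libraries. Markers of immune, endothelial, acinar and islet cells, 3 of each, summed to at most 0.556 FPKM in any library. Of 3 fibroblast markers COL1A1 was at 36.5 to 52.3 FPKM in degron (-) and at most 0.826 in degron (++), while COL3A1 and PDGFRB were at or below 0.168 in all 12 libraries. The files give no read counts. From the steps between low FPKM values the depth of the libraries was between 0.865 and 1.18 of the median library, and FPKM summed to 829654 to 916877 in degron (++) against 707273 to 763064 in degron (-). By correlation, the closest library to each of the 12 was one of its own population. The effect of bringing the FPKM sums to one total (TPM) is given with the medians below, and the part of depth and of COL1A1 in the results was not tested.

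Across the members the level was lower in degron (++) cells for most genes and higher for a few, and the sizes ranged widely. The 4 Gy libraries were not part of the comparison that chose the members, but the expression filter used them. They come from the same 2 populations and are no independent check. At 4 Gy 30 h, 27 of the 35 tested members were lower in degron (++), 4 were higher and 4 did not pass the test (limma, adjusted p under 0.05 over all tested genes). Of all tested genes, 40.8% were lower and 38.3% higher in that comparison, 79.1% in either direction. At 4 Gy 48 h, 27 members were lower and 5 higher, against 39.6% and 37.1% of all genes, 76.7% in either direction. At 0 Gy 48 h, the comparison that chose the members, 29 were lower and 4 higher, against 40.2% and 37.6% of all genes, 77.7% in either direction. In bulk RNA a lower level can mean fewer cells with the RNA or less RNA per cell, and these cannot be told apart. Since most genes differed between the populations, passing the test was common, and the members lower at 4 Gy 30 h were 77.1% of those tested beside the 40.8% of all genes.

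The median difference of the members, degron (++) minus degron (-) on the log2(FPKM + 1) scale, was -1.02 at 0 Gy 48 h, -1.01 at 4 Gy 30 h and -1.07 at 4 Gy 48 h. The median over all tested genes was -0.02, -0.02 and -0.01. With TPM the medians of the members were -1.23, -1.30 and -1.32 and those of all genes -0.21, -0.27 and -0.25. At 4 Gy 30 h all 35 members then passed the test, 31 lower and 4 higher, with SNN at -0.29, RSL1D1 at -0.37, PDXDC1 at -0.29 and ITPRIPL2 at -0.27 added to the lower ones (limma adjusted p = 0.0197, 0.00243, 0.00247 and 0.00293). Without the 6 members that have near-identical copies the median was -1.02, -1.01 and -0.94. MPV17L, C16orf45, TMC7 and C16orf62, 4 of the 35, passed the expression filter through degron (-) libraries alone and so had to differ. For this reason no p-value is given for these 4, and the counts and medians over tested members, in which they are included, are a description.

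**Figure D1:**
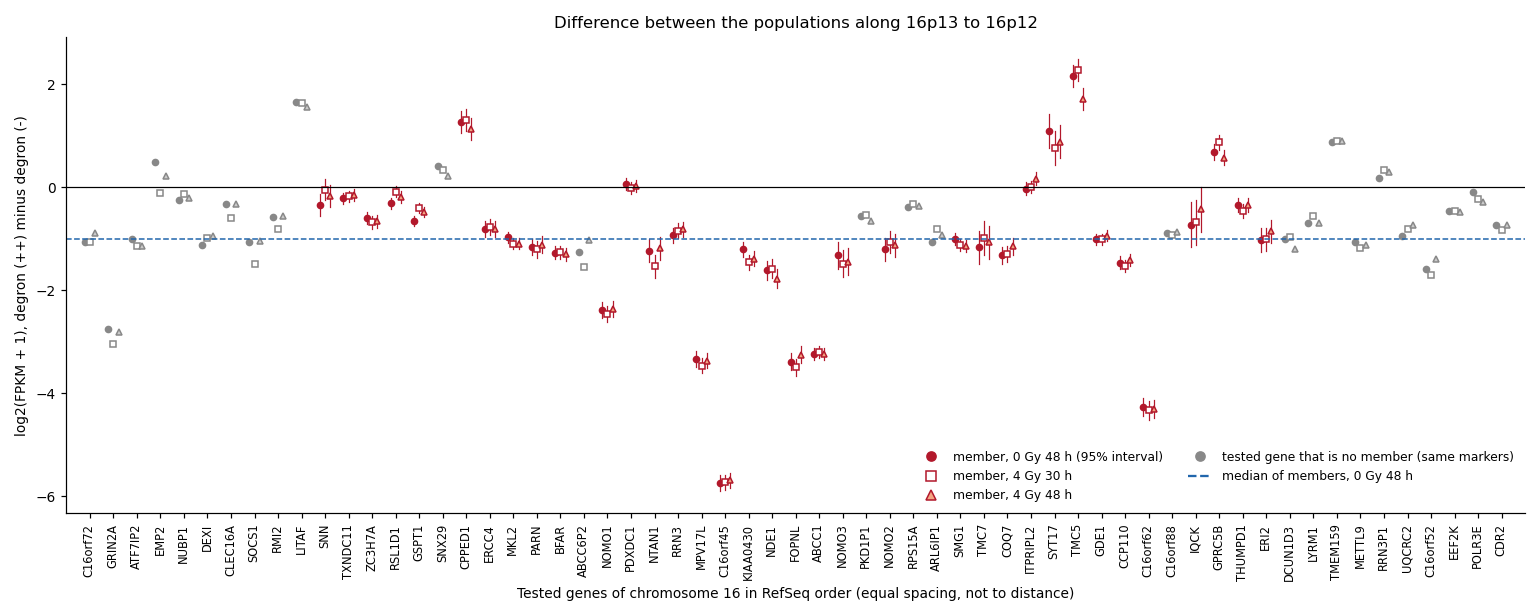
Difference in log2(FPKM + 1), degron (++) minus degron (-), for each tested gene of chromosome 16 from 10 genes before SNN to 10 genes after ERI2, in RefSeq order and equally spaced. Circles are 0 Gy 48 h, squares 4 Gy 30 h and triangles 4 Gy 48 h, members are red with 95% intervals, other genes grey, and the dashed line is the median of the members at 0 Gy 48 h, -1.02; the members range from -5.75 for C16orf45 to 2.28 for TMC5.

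Taken in chromosome order at 4 Gy 30 h, the stretch began with SNN at -0.05, TXNDC11 at -0.18, ZC3H7A at -0.69, RSL1D1 at -0.09 and GSPT1 at -0.40, all above the median of the members. The small difference of TXNDC11 passed the test (limma adjusted p = 0.00761) but did not with quantile normalization or median centring (0.0517 and 0.0652). CPPED1 followed at 1.30, and then came a run of lower genes with ERCC4 at -0.77, MKL2 at -1.10, PARN at -1.21, BFAR at -1.27 and NOMO1 at -2.47. PDXDC1 interrupted this run at -0.01. Beyond it lay NTAN1 at -1.54, RRN3 at -0.85, MPV17L at -3.47, C16orf45 at -5.74, KIAA0430 at -1.46, NDE1 at -1.58, FOPNL at -3.50 and ABCC1 at -3.21. Of the 5 lowest members on this scale, MPV17L, C16orf45, FOPNL and ABCC1 lay there, and C16orf62 lay further on. NOMO3 at -1.49 and COQ7 at -1.31 stood below the median, and NOMO2 at -1.07, SMG1 at -1.12 and TMC7 at -0.98 close to it. ITPRIPL2 at 0.00, SYT17 at 0.76 and TMC5 at 2.28 were neighbours that were not lower, apart from ITPRIPL2 with TPM. GDE1 at -1.01, CCP110 at -1.53, C16orf62 at -4.33 and IQCK at -0.68 were lower again, GPRC5B stood at 0.87, and the block closed with THUMPD1 at -0.46 and ERI2 at -1.01. Steep changes between tested members that follow each other recurred, as from NDE1 to FOPNL and from TMC5 to GDE1. Nothing is read from the changes at MPV17L, C16orf45 and C16orf62, which passed the expression filter through degron (-) libraries alone.

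Genes for RNA handling and translation spanned the narrowest range of the 6 role groups at 4 Gy 30 h, from -1.46 to -0.09. Of 9 tested, 8 were lower at 4 Gy 30 h and none higher, with a median of -0.85, and 9 were lower at 4 Gy 48 h. Beside this and the later role groups stand 40.8% of all tested genes and 77.1% of tested members that were lower at 4 Gy 30 h. GSPT1 codes for the release factor eRF3a, which ends translation with eRF1. Its FPKM in degron (++) libraries was 27.5 and 27.4 at 0 Gy, 32.5 and 34.1 at 4 Gy 30 h and 31.9 and 30.5 at 4 Gy 48 h. In degron (-) libraries it was 42.4 and 45.1, 44.7 and 43.8, and 44.1 and 43.8 in the same order. All 6 degron (++) values lay below all 6 degron (-) values, yet the degron (++) mean stood at 75.2% of the degron (-) mean at 4 Gy 30 h, well short of a halving (log2 difference -0.40 ± 0.042 SE, limma adjusted p = 1.97e-05).

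PARN, a nuclease that trims poly(A) tails, stood lower. The FPKM of PARN was 15.1 and 12.9, 14.2 and 13.9, and 13.6 and 12.7 in degron (++) at 0 Gy, 4 Gy 30 h and 4 Gy 48 h. In degron (-) the same groups gave 31.8 and 33.2, 35.2 and 32.6, and 29.7 and 29.8. The groups did not overlap, and degron (++) was at 41.5% of degron (-) at 4 Gy 30 h (-1.21 ± 0.071, limma adjusted p = 3.47e-07). SMG1, the kinase that starts nonsense-mediated decay by phosphorylating UPF1, was alike. Its degron (++) FPKM was 10.9 and 9.98, 10.4 and 10.2, and 9.72 and 9.20, against 21.7 and 22.6, 23.5 and 23.4, and 22.2 and 22.03 in degron (-). SMG1 was at 43.8% at 4 Gy 30 h (-1.12 ± 0.051, limma adjusted p = 6.35e-08). RRN3, an initiation factor of RNA polymerase I, was at 54.4%, KIAA0430, which codes for the endoribonuclease MARF1, at 28.5%, ZC3H7A, a zinc-finger protein, at 60.1% and THUMPD1, a cofactor of tRNA acetylation, at 70.5%. RSL1D1, a nucleolar protein, was at 93.9% at 4 Gy 30 h and did not pass the test there (-0.09 ± 0.047, limma adjusted p = 0.115).

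All 5 members of the group for DNA repair, mitosis and the cilium were lower at 4 Gy 30 h, with a median of -1.53, and 4 were lower at 4 Gy 48 h, where IQCK did not pass (-0.43 ± 0.191, limma adjusted p = 0.0652). Lower at 4 Gy 30 h were also 40.8% of all tested genes and 77.1% of tested members, and the difference of this group from the block was not tested. ERCC4 codes for XPF, the nuclease that cuts on the 5′ side of bulky DNA damage with ERCC1. ERCC4 FPKM was 1.53 and 1.47, 1.34 and 1.39, and 1.32 and 1.30 in degron (++) at 0 Gy, 4 Gy 30 h and 4 Gy 48 h. Degron (-) libraries gave 3.43 and 3.34, 2.96 and 3.10, and 3.25 and 2.92. The populations were fully apart, with degron (++) at 44.98% of degron (-) at 4 Gy 30 h (-0.77 ± 0.067, limma adjusted p = 5.04e-06).

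NDE1 binds LIS1 and dynein at the centrosome and kinetochore. For NDE1 the degron (++) FPKM was 3.97 and 4.20, 4.77 and 3.99, and 3.52 and 3.66, and the degron (-) FPKM 14.4 and 14.7, 15.6 and 14.5, and 15.6 and 13.97. Degron (++) was at 29.1% at 4 Gy 30 h and 24.3% at 4 Gy 48 h (-1.58 ± 0.080 and -1.78 ± 0.080, limma adjusted p = 1.29e-07 and 8.33e-08). KIAA0430, which shares with NDE1 the stretch between start sites shown above, was at 28.5% and 30.1%.

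FOPNL, a protein of centriolar satellites needed for cilia, was one of the 3 lowest members on the log2(FPKM + 1) scale. The added 1 sets that order, since MPV17L, at -3.47, was listed at 0 in degron (++) libraries. FPKM of FOPNL was 4.63 and 5.19, 4.86 and 4.29, and 5.24 and 4.63 in degron (++). The corresponding degron (-) values were 59.3 and 62.6, 63.1 and 61.0, and 55.8 and 55.4. Degron (++) thus held 7.38% of the degron (-) level at 4 Gy 30 h (-3.50 ± 0.073, limma adjusted p = 6.31e-10). CCP110, which caps centrioles, was at 30.9% with no overlap between the populations.

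In the group for the endoplasmic reticulum, endosome and protein handling, 8 of 11 tested members were lower at 4 Gy 30 h and 1 was higher, with a median of -1.07. NOMO1 was at 16.1% of degron (-), NOMO2 at 40.6% and NOMO3 at 22.8%. Summed over the 3 genes, which avoids dividing shared reads, FPKM lay between 9.41 and 11.1 in the degron (++) libraries and between 45.6 and 54.8 in those of degron (-), and the mean of degron (++) was 20.4% of that of degron (-). NTAN1, an amidase of the N-degron pathway, was at 33.4%, BFAR, an apoptosis regulator of the endoplasmic reticulum, at 40.4%, and GDE1, a glycerophosphodiester phosphodiesterase, at 48.8%.

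C16orf62 codes for VPS35L, a subunit of the retriever complex that returns cargo from endosomes to the cell surface. In degron (++) libraries C16orf62 was at 0.092 and 0.245 FPKM at 0 Gy, 0.131 and 0.160 at 4 Gy 30 h and 0.072 and 0.067 at 4 Gy 48 h. Degron (-) libraries had 20.3 and 22.8, 21.8 and 22.4, and 20.4 and 19.9. Nearly all of its RNA was therefore in degron (-) libraries, with degron (++) at 0.659% of their level at 4 Gy 30 h. On the log2(FPKM + 1) scale, which understates the change of a gene near 0, the difference was -4.33 ± 0.079.

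SYT17, a synaptotagmin-related protein, was the higher member of that group. Its FPKM was 5.74 and 4.48, 4.30 and 4.59, and 5.40 and 5.15 in degron (++) and 1.45 and 2.36, 2.27 and 2.15, and 2.38 and 2.43 in degron (-), which did not overlap. SNN, the first gene of the block, had 3.99 to 5.26 FPKM in degron (++) and 5.04 to 5.63 in degron (-) libraries, which overlapped. The difference of SNN at 4 Gy 30 h was -0.05 with a 95% interval of -0.26 to 0.16. ITPRIPL2 overlapped too and did not pass the test at 4 Gy 30 h (95% interval -0.12 to 0.13), while at 4 Gy 48 h it was higher by 0.16 ± 0.055 (limma adjusted p = 0.0231).

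**Figure D2:**
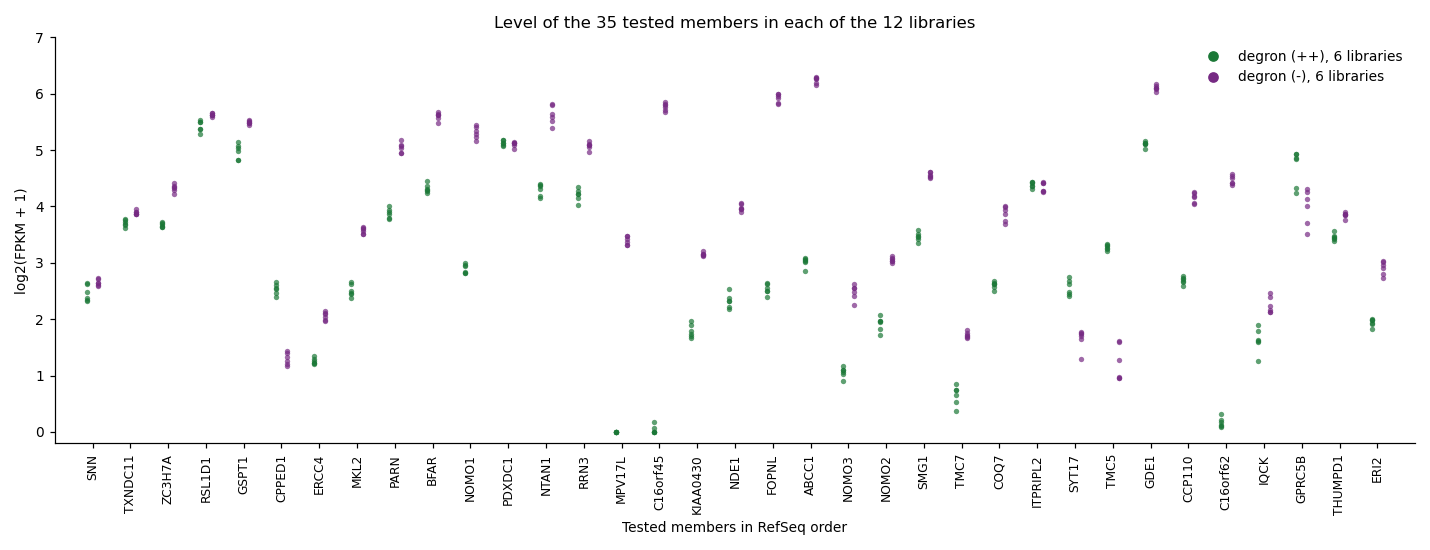
Level in log2(FPKM + 1) of the 35 tested members, in RefSeq order, in each of the 6 degron (++) libraries (green) and 6 degron (-) libraries (purple). The populations do not overlap in 31 members, 28 of them lower and 3 higher in degron (++), and they overlap in SNN, PDXDC1, ITPRIPL2 and GPRC5B.

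The metabolic group was divided, with 2 of 4 tested members lower, 1 higher and 1 not called at 4 Gy 30 h. COQ7, a hydroxylase of coenzyme Q synthesis, was at 36.3% of degron (-). MPV17L, related to the mitochondrial membrane protein MPV17, was listed at 0 in all 6 degron (++) libraries and was at 8.94 to 10.1 FPKM in degron (-) libraries, so no ratio is given. PDXDC1, which has a pyridoxal-dependent decarboxylase domain, was at 32.5 to 35.4 FPKM in degron (++) and 31.5 to 34.3 in degron (-). Its difference at 4 Gy 30 h was -0.01 with a 95% interval of -0.13 to 0.11.

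CPPED1, a phosphatase that acts on AKT1, went the other way. The FPKM of CPPED1 was 4.80 and 5.36, 4.24 and 5.06, and 4.86 and 4.52 in degron (++) at 0 Gy, 4 Gy 30 h and 4 Gy 48 h. In degron (-) it was 1.40 and 1.64, 1.26 and 1.30, and 1.51 and 1.69. All degron (++) libraries were above all degron (-) libraries (1.30 ± 0.093 at 4 Gy 30 h, limma adjusted p = 1.33e-06).

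Transporters, channels and receptors were split, with 2 lower and 2 higher of 4 tested at 4 Gy 30 h. ABCC1, also called MRP1, pumps glutathione conjugates and many drugs out of cells. ABCC1 FPKM was 7.24 and 7.14, 7.49 and 7.34, and 6.21 and 7.05 in degron (++), against 76.5 and 76.5, 76.0 and 77.6, and 72.3 and 69.9 in degron (-). This was the member with the highest level in degron (-) cells, and degron (++) held 9.66% of it at 4 Gy 30 h (-3.21 ± 0.052, limma adjusted p = 1.46e-10). TMC7, of the transmembrane channel-like family, was at 0.294 to 0.805 FPKM in degron (++) and 2.16 to 2.49 in degron (-).

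TMC5, of the same family as TMC7 and also in this block, was the highest member. TMC5 FPKM was 8.80 and 8.51, 8.60 and 8.29, and 9.05 and 8.94 in degron (++). In degron (-) it was 1.42 and 0.944 at 0 Gy, 0.957 and 0.937 at 4 Gy 30 h and 2.04 and 2.05 at 4 Gy 48 h. No libraries overlapped between the populations (2.28 ± 0.093 at 4 Gy 30 h, limma adjusted p = 3.20e-08, and 1.72 ± 0.093 at 4 Gy 48 h). GPRC5B, an orphan receptor of the retinoic acid-inducible family, had 19.03 and 17.9, 29.7 and 29.5, and 27.7 and 28.0 FPKM in degron (++). Its degron (-) values were 11.98 and 10.4, 15.1 and 16.4, and 18.7 and 18.1. At equal dose and time degron (++) was higher, but irradiated degron (-) libraries reached the unirradiated degron (++) values (0.87 ± 0.066 at 4 Gy 30 h, limma adjusted p = 1.96e-06).

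Of the last group, MKL2 (MRTFB), a coactivator of serum response factor, was at 41.9% of degron (-) at 4 Gy 30 h. C16orf45 (BMERB1), a protein with a bMERB domain, had the widest difference of all members on the log2(FPKM + 1) scale. It was listed at 0 in 4 of 6 degron (++) libraries, with 0.046 FPKM in the first 0 Gy and 0.137 FPKM in the second 4 Gy 30 h library. In degron (-) libraries it was at 53.4 and 55.0 FPKM at 0 Gy, 54.8 and 57.0 at 4 Gy 30 h and 51.4 and 50.3 at 4 Gy 48 h. The difference at 4 Gy 30 h was -5.74 ± 0.068, a value that the added 1 sets in part, and no ratio is given.

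**Figure D3:**
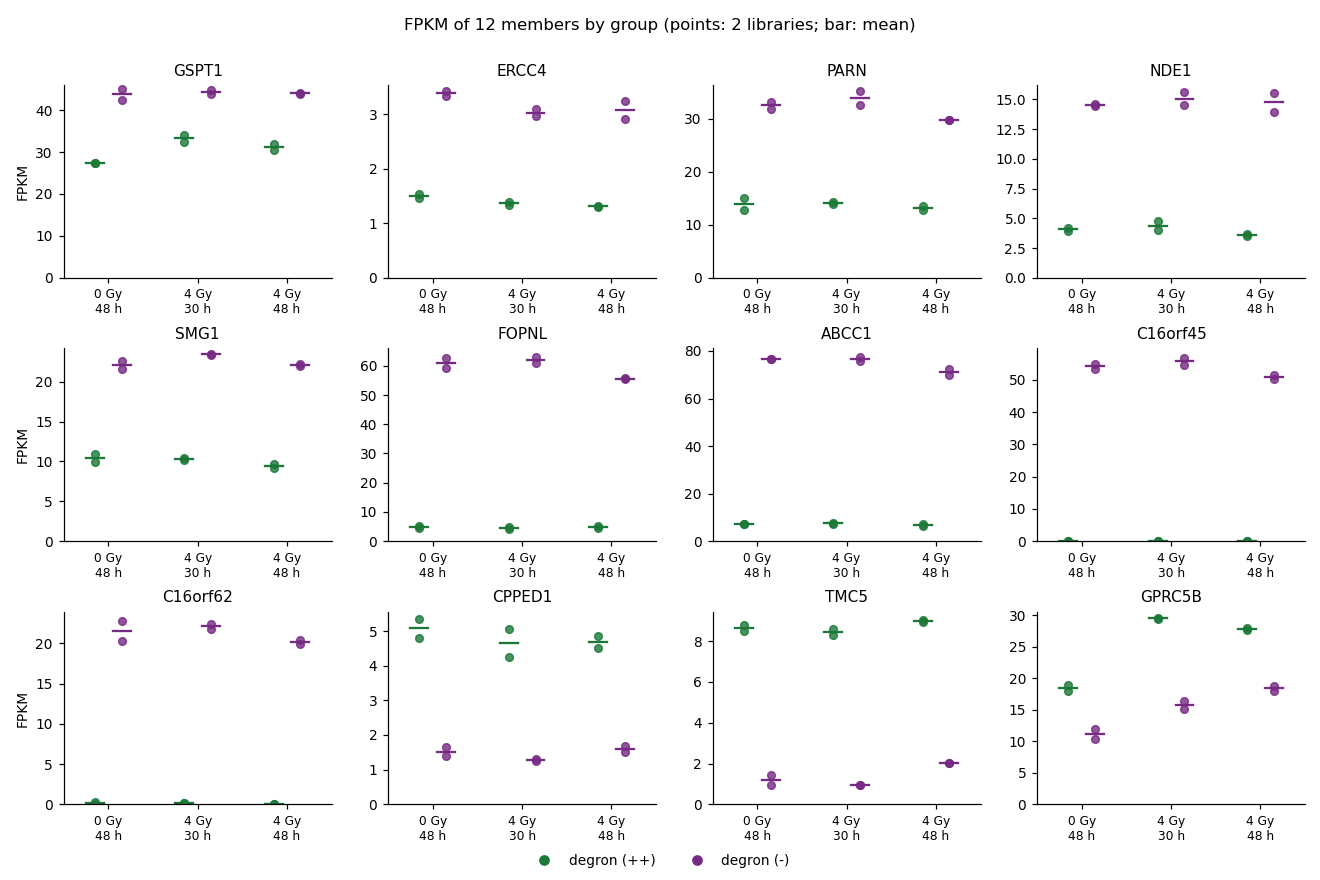
FPKM of 12 members in the 3 conditions, with points for the 2 libraries of each group and a bar for their mean, degron (++) in green and degron (-) in purple, each axis starting at 0. GSPT1 stays above 27 FPKM in degron (++), while C16orf45 and C16orf62 are close to 0 there, and CPPED1, TMC5 and GPRC5B are the members with higher degron (++) means.

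The 6 members that failed the expression filter were at most 0.840 FPKM. SHISA9 was at or below 0.039, XYLT1 at or below 0.063, MYH11 at or below 0.142, PLA2G10 at or below 0.321 and ACSM3 at or below 0.422 in all 12 libraries. ABCC6, which lies beside ABCC1, came closest to the filter, with 0.087 to 0.840 FPKM in degron (-) libraries and at most 0.039 in degron (++) libraries. Just inside the filter stood TMC7, whose degron (-) values were given above.

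The common step was then tested. The step was set at the median of the tested members at 0 Gy 48 h, -1.02 on the log2 scale or 49.4% of degron (-), and each member's difference in the 4 Gy libraries, which did not enter that median, was tested against the step in place of 0. At 4 Gy 30 h, 28 of 35 members differed from it, 14 above and 14 below, and at 4 Gy 48 h 27 differed, 15 above and 12 below (limma, adjusted p under 0.05). Of all tested genes, 90.9% and 91.1% differed from the same step, with 10.9% and 9.49% below and 80% and 81.6% above it. MKL2, NOMO2, TMC7, GDE1 and ERI2 did not differ from the step in either condition. The added 1 weighs on TMC7, whose degron (++) level was 28.2% of degron (-) at 4 Gy 30 h and 24.6% at 4 Gy 48 h. TMC7 was also among the members that had to differ between the populations, so nothing is read from its place near the step. The share of members off the step was no larger than that of all genes. All tested genes had a median of -0.02 at 4 Gy 30 h and -0.01 at 4 Gy 48 h, far from a step set on the members. Nothing is therefore read from this comparison of shares. Since the step is the members' own median and their differences varied little between conditions, members on both sides of it follow from how it was set, and nothing is read from that division. The counts below the step hold MPV17L, C16orf45 and C16orf62, which had to differ. On the log2(FPKM + 1) scale a constant ratio gives a smaller difference at low levels, as in ERCC4, which was called above the step at a ratio of 44.98%. Among the 26 members with a mean of at least 5 FPKM, 22 differed at 4 Gy 30 h, 10 above and 12 below, and 20 differed at 4 Gy 48 h, 10 above and 10 below. The added 1 weighs on some of these too, as on KIAA0430, at -1.46 against -1.81 as the log2 ratio of means, and most on C16orf62, at -4.33 against -7.25.

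Seen as ratios of mean FPKM with nothing added, 10 of the 33 members with a ratio were at 40% to 60% of degron (-) at 4 Gy 30 h, against 8.95% of all tested genes, and 9 of 33 were at 4 Gy 48 h, against 8.60%. A change from 2 copies to 1 would give 50%, from 3 to 2 66.7% and from 4 to 3 75% if RNA followed dose alone. Under 20% were NOMO1, FOPNL, ABCC1 and C16orf62 in each of the 3 conditions, beside MPV17L and C16orf45, for which no ratio is given. The members within 0.25 of the step on the log2(FPKM + 1) scale were 11 at 0 Gy, 9 at 4 Gy 30 h and 11 at 4 Gy 48 h, or 31.4%, 25.7% and 31.4%, beside 8.78%, 8.97% and 8.30% of all tested genes. By ratios of means they were 8, 7 and 7 of 33. Because the step is the median of these same members, their share near it is no evidence of a shared ratio. The SD across members was 1.52, 1.55 and 1.49, against a median SE of 0.067 for a single member. MPV17L, C16orf45, TMC7 and C16orf62, which had to differ, enter this SD, and it was not computed without them. The first value is from the 0 Gy libraries that chose the members.

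The difference of a member varied little between conditions. The range of a member's difference over the 3 conditions had a median of 0.139, was under 0.25 in 27 of 35 members and was at most 0.563, in TMC5. BFAR went from -1.27 to -1.30 and ABCC1 from -3.21 to -3.24. Of the 35 members, 26 were lower in all 3 conditions and CPPED1, SYT17, TMC5 and GPRC5B were higher in all 3. The share of all tested genes called the same way in all 3 was not counted. Since 77.7%, 79.1% and 76.7% of them were called at 0 Gy 48 h, 4 Gy 30 h and 4 Gy 48 h, nothing is read from this count of members. All 6 degron (++) libraries were below all 6 degron (-) libraries for 28 members and above them for 3, beside 37.2% and 34.1% of all tested genes. These counts hold the 0 Gy libraries that chose the members, and MPV17L, C16orf45, TMC7 and C16orf62, which had to differ.

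Lower genes also lay on both sides of the block. Of the 10 tested genes before SNN, 7 were lower and 1 higher at 4 Gy 30 h, with a median of -0.89, and of the 10 after ERI2, 8 were lower and 1 higher, with a median of -0.69. The direct neighbour before SNN was LITAF, which codes for an endosomal protein and was higher, with 128 to 147 FPKM in degron (++) and 39.9 to 49.7 in degron (-). Behind it lay RMI2, a subunit of the BLM helicase complex, at -0.81. GRIN2A, a glutamate receptor subunit further out, was listed at 0 in all 6 degron (++) libraries and was at 5.52 to 7.63 FPKM in degron (-). ATF7IP2, also before SNN, was at most 0.933 FPKM in degron (++). GRIN2A and ATF7IP2 thus passed the expression filter through degron (-) libraries alone and had to differ. The count and median of the 10 genes before SNN hold them and are a description. After ERI2 came DCUN1D3 at -0.98, LYRM1 at -0.57 and TMEM159 at 0.90. Between SNN and ERI2 lay 6 tested genes that were no members, of which SNX29 was higher (0.33) and ABCC6P2, PKD1P1, RPS15A, ARL6IP1 and C16orf88 were lower at 4 Gy 30 h. ABCC6P2 and PKD1P1 were at most 0.355 and 0.337 FPKM in degron (++), so they too passed the filter through degron (-) alone and had to differ. RPS15A, a ribosomal protein at 374 to 455 FPKM in degron (++) and 490 to 554 in degron (-), differed by -0.33, and ARL6IP1 by -0.81. Over the other 553 tested genes of chromosome 16 the median was -0.02 with 44.1% lower.

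Compared with the 2 other chromosomal blocks of this kind, the members were more spread than one and less than the other. In 6q16-q21, from USP45 to TRAF3IP2, 39 of 41 tested genes were lower and none higher at 4 Gy 30 h, with a median of -1.17 and an SD of 0.89 across genes. In 19q13, from ZNF829 to CYP2S1, 59 of 79 were lower and 7 higher, with a median of -1.80 and an SD of 1.80. The 16p13 members, with 27 lower and 4 higher of 35, had a median of -1.01 and an SD of 1.55. The 2 other blocks hold every tested gene of their span, while the members leave out 6 tested genes between SNN and ERI2. Those 6 had a median of -0.68 and an SD of 0.63, so the comparison is between unlike sets. ABCC6P2 and PKD1P1 among them had to differ, as did MPV17L, C16orf45, TMC7 and C16orf62 among the members. Genes of this kind in the 2 other blocks were not counted. These blocks too were noticed in the same libraries, and the difference between the blocks was not tested.

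**Figure D4:**
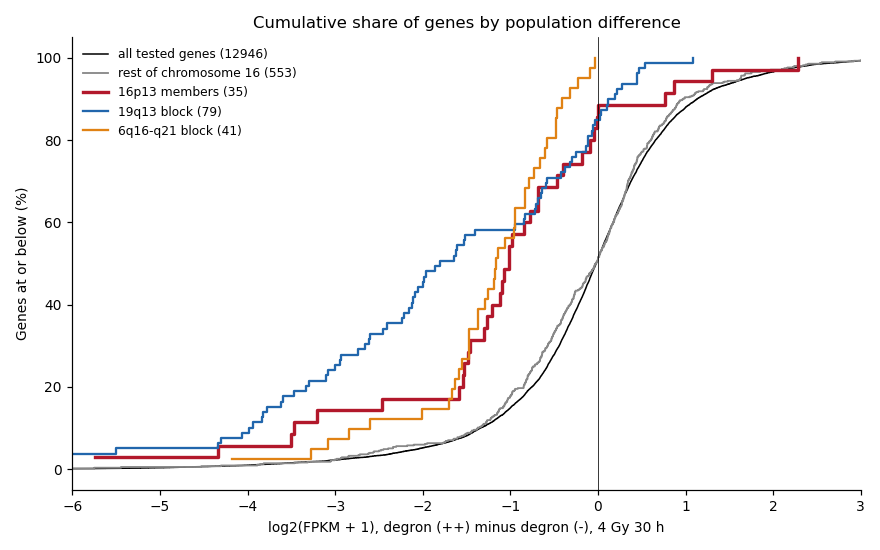
Cumulative share of genes, in percent, by their difference in log2(FPKM + 1) between degron (++) and degron (-) at 4 Gy 30 h. The 16p13 members (red, 35 genes) rise steeply near -1 with tails to -5.74 and 2.28, 6q16-q21 (orange, 41 genes) ends below 0, 19q13 (blue, 79 genes) is broader, and the rest of chromosome 16 (grey, 553 genes) follows all 12946 tested genes (black). Both ends of the horizontal axis leave out the most extreme genes.

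Few members passed the test with dose or time, and so did few of all tested genes. Nothing about the block is read from these counts. With 4 Gy against 0 Gy at 48 h, 1 of 35 members passed the test in degron (++) and 2 in degron (-), beside 1.82% and 4.73% of all tested genes. GPRC5B rose with dose in both populations, by 0.57 ± 0.066 in degron (++) (limma adjusted p = 0.0130) and by 0.67 ± 0.066 in degron (-) (limma adjusted p = 0.00202). Its mean FPKM went from 18.5 to 27.9 in degron (++) and from 11.2 to 18.4 in degron (-), with no overlap between doses in either. No difference in this rise between the populations was detected (interaction -0.10 ± 0.093, limma adjusted p = 0.664). The call in degron (++) was lost without any one of its 4 libraries, with adjusted p from 0.0540 to 0.0793, and in fits on only the libraries compared, where adjusted p was 0.160 in degron (++) and 0.141 in degron (-).

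TMC5 rose with dose in degron (-), by 0.49 ± 0.093 (limma adjusted p = 0.0231), and from 30 h to 48 h after 4 Gy by 0.64 ± 0.093 (limma adjusted p = 0.00473). These comparisons share the 4 Gy 48 h libraries, in which TMC5 was at 2.04 and 2.05 FPKM. In degron (++) its differences were 0.05 and 0.08. No difference in dose effect between the populations was detected (-0.44 ± 0.131, limma adjusted p = 0.207), and the time effect missed the threshold (-0.56 ± 0.131, limma adjusted p = 0.0587). The dose call was lost without either 4 Gy 48 h library of degron (-), or without the second 0 Gy library, with adjusted p of 0.0870, 0.123 and 0.0659, and with no filter (0.0598). In fits on only the libraries compared, both the dose call and the time call were lost (0.218 and 0.0859). Without either 0 Gy degron (-) library, which the time comparison itself does not use, the difference in time effect passed, with adjusted p of 0.0189 and 0.0183.

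**Figure D5:**
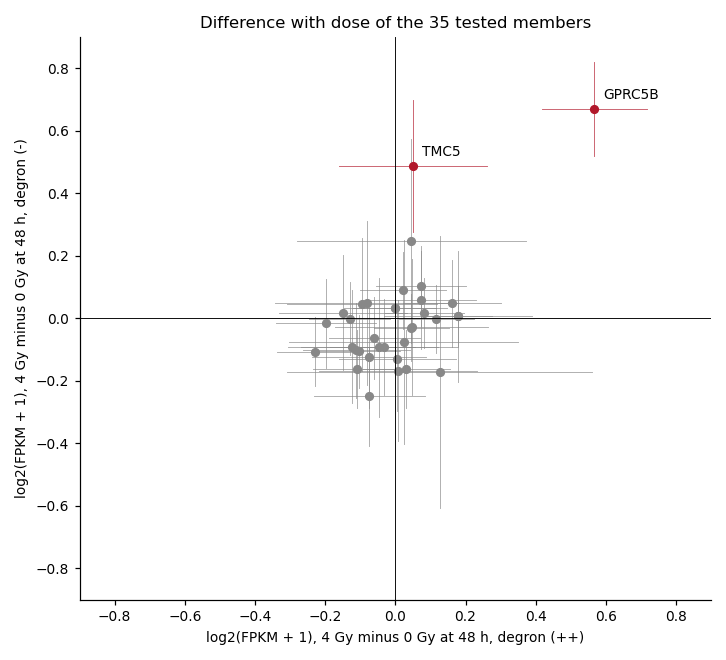
Difference in log2(FPKM + 1) between 4 Gy and 0 Gy at 48 h for the 35 tested members, in degron (++) on the horizontal and degron (-) on the vertical axis, with 95% intervals. GPRC5B (0.57 and 0.67) and TMC5 (0.05 and 0.49) are in red, and the other 33 members in grey lie within 0.25 of 0 on both axes.

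From 30 h to 48 h after 4 Gy, no member passed the test in degron (++), beside 1.21% of all tested genes. In degron (-) TMC5 alone passed, beside 7.18%. Limma's unadjusted p was under 0.05 for NDE1 and ABCC1 in degron (++). In degron (-) it was under 0.05 for PARN, NTAN1, COQ7, CCP110, GPRC5B and TMC5. No member had a dose effect or a time effect that differed between populations by limma's adjusted p, beside 0.0772% and 3.23% of all tested genes, and 3 and 4 members had an unadjusted p under 0.05.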

How the data were processed

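RNA of the 12 libraries was prepared with a stranded mRNA kit, and the authors deposited FPKM per gene symbol, 1 file per library. The submitters' processing notes name TopHat2 2.1.1, Bowtie2 2.2.8, SAMtools 0.1.18, Cuffdiff 2.2.1 and hg19. FPKM of near-identical genes depend on how shared reads were divided. No counts were part of the files, so no interval for counting error is given, and where FPKM was 0 the gene is only said to be listed at 0.

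The log2(FPKM + 1) values were fitted with limma 3.58.1 in R 4.3.3 (6 group means, all 12 libraries, eBayes with trend), with Benjamini-Hochberg adjustment over the 12946 genes that reached FPKM 1 in 2 or more libraries and a threshold of 0.05. The ± values after log2 differences are standard errors. The fit was tested on simulated data. Tables were made with Python 3.11.15, pandas 2.3.3 and numpy 2.4.6, figures with matplotlib 3.10.9. Gene order and upstream windows came from RefSeq (GRCh38.p14), which placed 21788 of the listed symbols, and coding sequences from GENCODE v29 (GRCh38). As the files use hg19, only the order was joined to the values.

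The members, role groups and tests were chosen with earlier results of these data known. Values in every library are given for the 3 lowest and 3 highest members at 4 Gy 30 h, for GSPT1, PARN, ERCC4, ABCC1, SMG1 and NDE1, and for members called with dose or time. MPV17L, SYT17, the summed NOMO genes and, outside the block, GRIN2A, RPS15A and ARL6IP1 were singled out after their values were seen. Alternatives were a pseudocount of 0.1, no filter, a filter at FPKM 5, quantile, TPM and median scaling, untrended eBayes, a replicate block, only the libraries compared, each library left out, and a step from members with a mean of at least 5 FPKM. Leaving out genes with copies, and the ratio of means, were added after the data were seen.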

Additional observations from a re-analysis of the deposited data

How the results depend on the processing

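The direction and call of each tested member at 4 Gy were the same in 603 of 622 values under other settings and in 825 of 840 with 1 library left out. Leaving out a library that a comparison does not use cannot change the difference. Nor can untrended eBayes, the replicate block or a fit on only the libraries compared. In those values the direction was fixed in advance and only the call could change. The median of the members at 0 Gy, 4 Gy 30 h and 4 Gy 48 h was -1.12, -1.22 and -1.17 with a pseudocount of 0.1, -0.94, -0.85 and -0.82 with no filter, -0.92, -0.93 and -0.99 with quantile normalization, -0.96, -0.94 and -0.98 with median centring, and -1.23, -1.30 and -1.32 with TPM, under which the median of all genes was -0.21, -0.27 and -0.25. With a filter at FPKM 5 it was -1.07 at 4 Gy 30 h, and without genes that have copies -0.94 at 4 Gy 48 h. With 1 library left out it was -1.07 to -0.99, -1.05 to -1.01, and -1.09 to -0.97.

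Of the members near 0, SNN at 4 Gy 30 h turned to 0.0752 with quantile normalization and 0.0250 with median centring, and was -0.130 to 0.0330 with a library left out, the last without the first degron (++) library. PDXDC1 at 4 Gy 30 h turned to 0.0621 with median centring and was -0.0711 to 0.0483 with a library left out, the last without the second degron (++) library, and to -0.24 with TPM at 4 Gy 48 h. ITPRIPL2 at 4 Gy 30 h turned to -0.272 with TPM and was -0.0727 to 0.0744 with a library left out, below 0 without the first degron (++) or first degron (-) library. It turned to -0.0905 with TPM at 4 Gy 48 h, where its call was lost without any one of its 4 libraries (adjusted p 0.0537 to 0.0958). With TPM, SNN, RSL1D1, PDXDC1 and ITPRIPL2 passed as lower at 4 Gy 30 h, and SNN, PDXDC1 and IQCK at 4 Gy 48 h. RSL1D1 also passed with quantile normalization at 4 Gy 30 h (adjusted p 0.0267) and lost its call with median centring at 4 Gy 48 h (0.0805). TXNDC11 lost its call at 4 Gy 30 h with quantile normalization, with median centring and without the first degron (-) library (0.0517, 0.0652 and 0.0565). At 4 Gy 48 h it lost it in the same scalings (0.136 and 0.238), with only the libraries compared (0.0680) and without the first degron (++) or second degron (-) library (0.113 and 0.0814). IQCK lost its call at 4 Gy 30 h without the first degron (-) library (0.0688) and gained one at 4 Gy 48 h with only the libraries compared (0.0116) and without either 0 Gy degron (++) library (0.0119 and 0.0120). SNN gained one at 4 Gy 48 h without the second degron (++) library (0.0202).

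With dose in degron (++), 2 members passed with no filter, with a filter at FPKM 5 and without trend, MKL2 joining GPRC5B, 0 passed with only the libraries compared, and 0 to 1 with a library left out. With dose in degron (-), 1 passed with no filter, 0 with only the libraries compared and 1 to 2 with a library left out. With time in degron (-), ABCC6 joined TMC5 to give 2 with no filter, and 0 passed with only the libraries compared. The time effect of TMC5 differed between populations, giving 1 member, with a pseudocount of 0.1 and with only the libraries compared, and 0 to 1 members with a library left out. The cause of these changes was not tested. At 4 Gy 48 h, 7 members in place of 11 were within 0.25 of the step by ratios of means.

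Members that differed from the step numbered 24 to 34 under the other settings, with 31 to 41 tested, when the setting without genes that have copies is left aside. Without those genes, 24 of 29 members differed at 4 Gy 30 h and 22 of 29 at 4 Gy 48 h. The replicate numbers did not pair the samples (correlations of deviations from -0.0381 to 0.122 over 15 pairs of groups), and the replicate block gave 31 and 32 members past the threshold at 4 Gy 30 h and 48 h, as without it. With 2 libraries per group and no read counts, precision of low members is limited.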
